A study of Mus musculus with 5 samples.

Results

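RNA from liver lobe 1 of BALB/C pups on day 10 of life was sequenced, and 10 imprinted genes that drive or restrain growth before weaning are described here. The members were chosen by gene symbol and are Meg3, Rian, Mirg, Dlk1, Plagl1, Peg3, Zim1, Mest, Grb10 and Cdkn1c. All 10 were found among the 36401 Ensembl genes of the count tables, each on 1 row. The tested mice were Mdr2+/- (heterozygous for a lost Mdr2 allele, 3 libraries) and the mice they were compared with were Mdr2+/+ (wild-type littermates, 2 libraries). Mdr2 is the older name of Abcb4, the transporter that moves phosphatidylcholine from hepatocytes into bile, and the series title concerns low ABCB4 in biliary atresia, a disease of the newborn bile ducts. The line had been backcrossed from Mdr2-/- mice into BALB/c, all pups were killed at the same age, and no other treatment is given in the labels. The labels do not say outright that each library is a separate pup, so p-values rest on differences among these libraries, which may be technical.

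Imprinted genes are transcribed mainly from the chromosome inherited from a given parent. Several of them form a network that is active in the fetus and is switched off in many organs as growth slows after birth. In the Dlk1-Dio3 domain the maternal chromosome makes the noncoding RNAs Meg3, Rian and Mirg, while the paternal chromosome makes the protein-coding gene Dlk1, a Notch-like surface protein of hepatoblasts. Rian carries snoRNAs and miRNAs in its introns and Mirg carries miRNAs. Plagl1 (paternal) encodes a zinc finger transcription factor that regulates other genes of the network. Peg3 (paternal) and Zim1 (maternal) are neighbouring zinc finger genes, Mest (paternal) encodes a hydrolase-like protein, Grb10 (maternal outside the brain) an adaptor that restrains the insulin and insulin-like growth factor receptors, and Cdkn1c (maternal) the cyclin-dependent kinase inhibitor p57. The counts do not separate the 2 parental alleles.

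Library totals were 12991301, 16596923 and 17312851 estimated counts in Mdr2+/- livers and 14644529 and 11944157 in Mdr2+/+ livers. Abcb4 (chromosome 5) checked the labels: it had 101, 97.7 and 92.6 CPM in Mdr2+/- livers, against 162 and 162 CPM in Mdr2+/+ livers. None of the members lies on chromosome 5. CPM, used throughout, are estimated counts scaled to library size and TMM factor. Hepatocyte markers were abundant in all libraries, with a summed level of 163830 to 178293 CPM over 9 genes in Mdr2+/- livers and 148978 and 163603 CPM in Mdr2+/+ livers.

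The sequences below are the 300 bases around the annotated start (250 before and 50 after) of the members whose levels differed, with Dlk1, which shares their domain, and Peg3, which shares a motif with Meg3. They come from RefSeq on build GRCm38.p6, run 5′ to 3′ on the strand of the gene, and 9 of the 10 members matched by symbol (not Cdkn1c), with 13 windows in all. Meg3 has a further window, with a later start, that is not shown. Capitals mark matches, on either strand, to the cAMP response element TGACGTCA, to the TATA box TATAAA or to GGGGCCCC, a GC-rich core bound by Plagl1. The windows are chr12:109540746-109541045 (Meg3, plus strand), chr12:109603695-109603994 (Rian, plus strand), chr12:109452573-109452872 (Dlk1, plus strand), chr10:13090582-13090881 (Plagl1, plus strand) and chr7:6730370-6730669 (Peg3, minus strand).
Meg3: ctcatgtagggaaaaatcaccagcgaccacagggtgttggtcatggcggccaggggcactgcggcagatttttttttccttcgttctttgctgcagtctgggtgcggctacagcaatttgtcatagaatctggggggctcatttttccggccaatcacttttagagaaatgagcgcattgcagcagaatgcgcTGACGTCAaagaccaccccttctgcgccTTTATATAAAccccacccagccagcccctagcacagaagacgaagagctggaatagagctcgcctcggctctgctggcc
Rian: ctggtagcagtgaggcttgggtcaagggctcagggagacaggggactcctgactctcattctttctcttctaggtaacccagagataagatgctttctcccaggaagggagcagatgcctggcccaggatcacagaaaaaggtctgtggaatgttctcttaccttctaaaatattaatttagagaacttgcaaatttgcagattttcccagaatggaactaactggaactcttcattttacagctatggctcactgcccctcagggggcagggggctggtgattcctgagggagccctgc
Dlk1: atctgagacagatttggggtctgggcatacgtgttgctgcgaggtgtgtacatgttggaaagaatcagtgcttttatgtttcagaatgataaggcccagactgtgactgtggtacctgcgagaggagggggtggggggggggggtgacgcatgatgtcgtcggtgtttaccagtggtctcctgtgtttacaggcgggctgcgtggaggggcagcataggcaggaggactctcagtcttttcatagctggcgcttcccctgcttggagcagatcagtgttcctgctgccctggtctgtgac
Plagl1: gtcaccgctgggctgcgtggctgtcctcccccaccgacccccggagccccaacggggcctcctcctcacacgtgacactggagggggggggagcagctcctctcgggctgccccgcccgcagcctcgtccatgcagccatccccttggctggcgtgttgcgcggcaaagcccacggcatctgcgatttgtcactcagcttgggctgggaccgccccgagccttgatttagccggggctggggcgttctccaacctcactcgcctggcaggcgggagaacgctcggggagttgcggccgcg
Peg3: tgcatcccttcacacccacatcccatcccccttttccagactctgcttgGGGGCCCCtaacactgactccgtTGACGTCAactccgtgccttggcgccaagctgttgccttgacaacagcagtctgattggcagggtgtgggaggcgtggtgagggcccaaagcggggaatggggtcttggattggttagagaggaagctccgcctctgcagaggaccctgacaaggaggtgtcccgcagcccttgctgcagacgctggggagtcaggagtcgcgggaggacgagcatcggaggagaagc

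TGACGTCA was found 57 bases before the Meg3 start and 178 bases before the Peg3 start. It occurs in 1.79% of 32817 distinct mouse windows of this length. TATAAA was found 25 bases before the Meg3 start and again, on the opposite strand and overlapping it, 29 bases before; 13.6% of all windows hold it. GGGGCCCC was found 201 bases before the Peg3 start, and 1.07% of windows hold it. None of these letters was in the Rian, Dlk1 or Plagl1 window. The Rian window has 0 CG pairs, the Meg3 window shown 13, the Dlk1 window 9, the Peg3 window 13 and the Plagl1 window 26, against a median of 7 over all windows. These matches describe sequence only.

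A pair of noncoding RNAs of the Dlk1-Dio3 domain were higher in Mdr2+/- livers, Plagl1 was lower, and the other tested members did not pass the test. Of the 10 members, 9 passed the low-count filter and were tested (quasi-likelihood test of edgeR, p-values adjusted by Benjamini-Hochberg across the 13959 genes tested, threshold 0.05). Of these 9, 2 were higher (Meg3 and Rian) and 1 was lower (Plagl1). Across all tested genes 12% were called, 6.63% higher and 5.41% lower. TMM scaling gave 925 higher and 755 lower genes, and scaling to library size without it 704 higher and 936 lower. Calls higher with a log2 fold change of at least 1, as for Meg3 and Rian, made up 0.938% of tested genes. The median log2 fold change (Mdr2+/- over Mdr2+/+) was 0.011 over the tested members and -0.0025 over all tested genes. The 3 calls among 9 members are a count beside that background, with no test of the list.

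Meg3 (ENSMUSG00000021268, chr12:109541001-109571726, plus strand, mm10, a long noncoding RNA) had 20.1, 21.4 and 23.0 CPM in Mdr2+/- livers, against 10.96 and 9.25 CPM in Mdr2+/+ livers. The lowest Mdr2+/- library lay well above the highest Mdr2+/+ library. Groups did not overlap in this direction for 22.9% of all tested genes, and in either direction for 45.5%. The means were 21.5 ± 1.44 CPM in Mdr2+/- (SD, n = 3) and 10.1 ± 1.21 CPM in Mdr2+/+ livers (SD, n = 2). This was a log2 fold change of 1.08 (SE 0.11, 95% interval 0.83 to 1.33, edgeR adjusted p = 0.00083), or 2.12-fold higher. By size of change Meg3 lay above 98.1% of tested genes.

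Rian, the snoRNA and miRNA host downstream of Meg3, had 33.2, 44.1 and 34.1 CPM in Mdr2+/- livers, against 17.2 and 13.8 CPM in Mdr2+/+ livers. All 3 Mdr2+/- libraries were again above both Mdr2+/+ libraries, as for 22.9% of all tested genes. Mdr2+/- replicate 2 was the highest. The means were 37.1 ± 6.04 CPM in Mdr2+/- (SD, n = 3) and 15.5 ± 2.43 CPM in Mdr2+/+ livers (SD, n = 2), a log2 fold change of 1.25 (SE 0.15, 95% interval 0.92 to 1.58, edgeR adjusted p = 0.00127). The fold was 2.38. The identifier of Rian in the count tables (ENSMUSG00000091793) is not in GENCODE M21, where the gene of this symbol spans chr12:109603940-109661716 on the plus strand. Both calls held in all 14 alternative settings. The longest annotated transcripts have 14548 bases for Meg3 and 8089 for Rian, while the median lengths are 797 and 894. With an offset for the longest transcript length the log2 fold changes were 0.92 and 1.12, both past the threshold.

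Mirg, the miRNA host at the far end of the same transcribed region, was too rare to be tested. It had 8, 7 and 11 estimated counts in Mdr2+/- livers, against 6 and 5 in Mdr2+/+ livers. Summed over libraries and scaled to depth, the ratio was 1.38 (exact 95% interval 0.657 to 3.09, counting error only), an interval that holds both no change and the folds of Meg3 and Rian. Short RNAs of the region were almost unmeasured in these libraries: of 53 miRNA genes annotated between the Meg3 start and the Mirg end, 1 had a value above 0, and of 22 snoRNA genes 1 did.

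**Figure D1:**
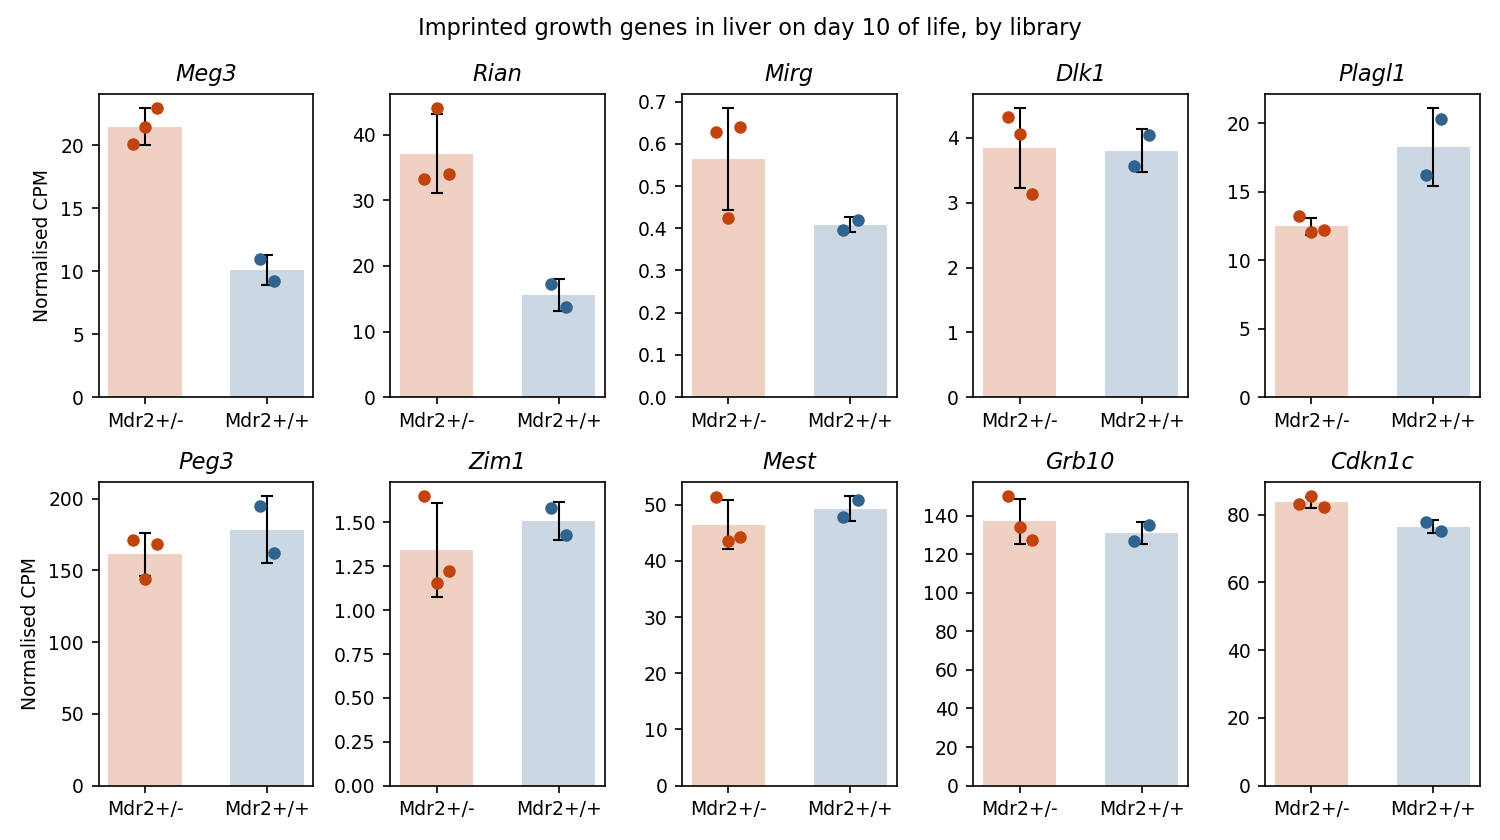
Normalised CPM of the 10 members in each library (points), with the group mean (bar) and SD (whisker), 3 Mdr2+/- and 2 Mdr2+/+ libraries; each panel has its own vertical axis starting at 0. Meg3 lies at 20.1 to 23.0 CPM in Mdr2+/- and at 9.25 and 10.96 CPM in Mdr2+/+ livers, while the Dlk1 points of the 2 genotypes overlap.

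Dlk1, the paternally transcribed member of the domain, did not pass the test. It had 4.32, 4.07 and 3.14 CPM in Mdr2+/- livers, against 3.57 and 4.04 CPM in Mdr2+/+ livers. Both the highest and the lowest value were in Mdr2+/- livers. The log2 fold change was 0.011 (95% interval -0.44 to 0.46, edgeR adjusted p = 0.982), so a change as large as the Meg3 or Rian estimate lies outside the interval. Its sign changed between settings. Other genes of the domain were rare. Rtl1, a retrotransposon-derived gene, had 0, 3 and 2 counts in Mdr2+/- livers, against 1 and 0 in Mdr2+/+ livers. Dio3, which inactivates thyroid hormone, had 1.33, 1.76 and 1.34 CPM in Mdr2+/- livers, against 1.52 and 0.505 CPM in Mdr2+/+ livers (log2 fold change 0.48, edgeR adjusted p = 0.466). Begain, at the outer edge of the domain, had 0, 2 and 1 counts in Mdr2+/- livers, against 4 and 1 in Mdr2+/+ livers.

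Ratios within a library do not depend on how libraries are scaled to each other. The Meg3 count was 4.61, 5.27 and 7.31 times the Dlk1 count in Mdr2+/- livers, against 3.07 and 2.29 times in Mdr2+/+ livers. The Rian count was 7.62, 10.8 and 10.8 times the Dlk1 count in Mdr2+/- livers, against 4.83 and 3.41 times in Mdr2+/+ livers. Both ratios were higher in every Mdr2+/- library than in either Mdr2+/+ library. Each divides a called member by Dlk1, using the same counts, so the separation is no separate support for the calls. How often ratios of other gene pairs separate was not computed. The exact two-sided permutation test over libraries gave p = 0.2 for each (0.28 adjusted over the 7 ratios computed). This test doubles the smaller one-sided p, and 0.2 is the smallest value it allows with 3 libraries against 2. The ratio of Rian to Meg3, in contrast, was 1.65, 2.06 and 1.48 in Mdr2+/- livers, against 1.58 and 1.49 in Mdr2+/+ livers, and the groups overlapped (exact permutation p = 0.6).

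**Figure D2:**
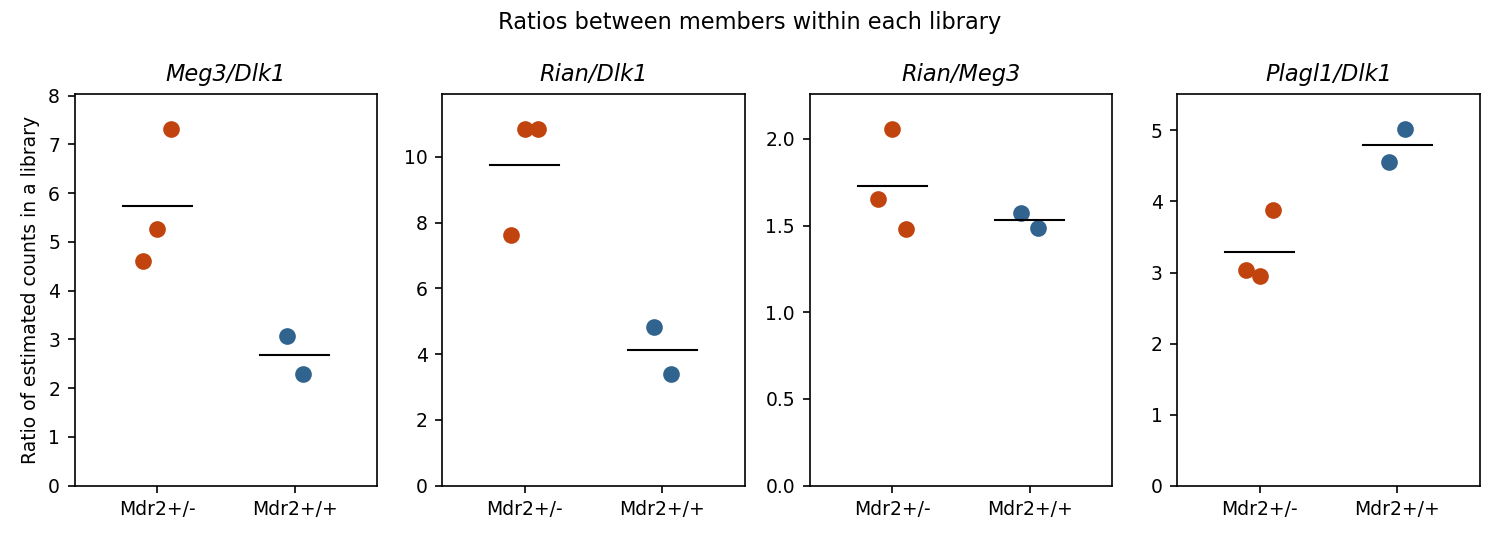
Ratio of estimated counts of 2 members within each library (points; horizontal line, group mean), Mdr2+/- left and Mdr2+/+ right. Meg3/Dlk1 and Rian/Dlk1 are higher in all 3 Mdr2+/- libraries (4.61 to 7.31 and 7.62 to 10.8), Rian/Meg3 overlaps, and Plagl1/Dlk1 is lower.

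Plagl1 (ENSMUSG00000019817, chr10:13060504-13131694, plus strand) was the member that fell. It had 13.2, 12.02 and 12.2 CPM in Mdr2+/- livers, against 16.2 and 20.3 CPM in Mdr2+/+ livers. The 3 Mdr2+/- libraries were close together and below both Mdr2+/+ libraries, which themselves differed; groups did not overlap in this direction for 22.7% of tested genes. The means were 12.5 ± 0.626 CPM in Mdr2+/- (SD, n = 3) and 18.3 ± 2.85 CPM in Mdr2+/+ livers (SD, n = 2), a log2 fold change of -0.55 (SE 0.12, 95% interval -0.81 to -0.28, edgeR adjusted p = 0.0171). The Mdr2+/- level was 31.5% lower. The call was lost without Mdr2+/+ replicate 2 (log2 fold change -0.38, adjusted p = 0.0918), without Mdr2+/- replicate 2 (adjusted p = 0.0589) and without Mdr2+/- replicate 3 (adjusted p = 0.0516). It held in the other 11 of 14 settings.

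Within a library, Plagl1 was lower relative to each of the other paternal members in all 3 Mdr2+/- libraries than in either Mdr2+/+ library. The Plagl1 count was 3.04, 2.95 and 3.88 times the Dlk1 count in Mdr2+/- livers, against 4.56 and 5.02 times in Mdr2+/+ livers. It was 0.257, 0.276 and 0.276 of the Mest count in Mdr2+/- livers, against 0.341 and 0.399 in Mdr2+/+ livers. Relative to Peg3 the ratios were 0.0772, 0.0835 and 0.0726 in Mdr2+/- livers, against 0.0836 and 0.125 in Mdr2+/+ livers, where the groups nearly touched. Each of these 3 exact permutation tests gave p = 0.2, the smallest that the doubled one-sided p can reach. The ratios use the same Plagl1 counts as the call, so they are no separate support for it.

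The zinc finger pair on chromosome 7 did not pass. Peg3 had 171, 144 and 168 CPM in Mdr2+/- livers, against 195 and 162 CPM in Mdr2+/+ livers, and the groups overlapped. Its log2 fold change was -0.15 (95% interval -0.37 to 0.07, edgeR adjusted p = 0.365). The Peg3 count was 104 to 138 times the Zim1 count in Mdr2+/- livers, against 123 and 113 times in Mdr2+/+ livers. Zim1 had 1.65, 1.15 and 1.22 CPM in Mdr2+/- livers, against 1.59 and 1.43 CPM in Mdr2+/+ livers. Its log2 fold change was -0.20, with a wide 95% interval of -0.80 to 0.41 (edgeR adjusted p = 0.685). Usp29, a paternal neighbour, had 1 count in a single Mdr2+/+ library and 0 in the others.

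Mest had 51.4, 43.6 and 44.3 CPM in Mdr2+/- livers, against 47.7 and 50.8 CPM in Mdr2+/+ livers. The groups overlapped, and the log2 fold change was -0.09 (95% interval -0.28 to 0.10, edgeR adjusted p = 0.541). Mest overlaps 912 exonic bases of Copg2 on the opposite strand, and since use of strand is not stated, reads of the 2 genes in that stretch cannot be told apart. Copg2 itself, a coat protein gene, had a log2 fold change of 0.09 (edgeR adjusted p = 0.469).

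The growth restrainers Grb10 and Cdkn1c did not pass either. Grb10 had 149.9, 134 and 127 CPM in Mdr2+/- livers, against 127 and 135 CPM in Mdr2+/+ livers, with overlapping groups. Its log2 fold change was 0.07 (95% interval -0.11 to 0.24, edgeR adjusted p = 0.635). Cdkn1c had 83.2, 85.3 and 82.2 CPM in Mdr2+/- livers, against 77.7 and 75.0 CPM in Mdr2+/+ livers. All 3 Mdr2+/- values of Cdkn1c were above both Mdr2+/+ values, but the difference was small. Its log2 fold change was 0.13 (95% interval -0.01 to 0.26, edgeR adjusted p = 0.193), and groups did not overlap in this direction for 22.9% of all tested genes.

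**Figure D3:**
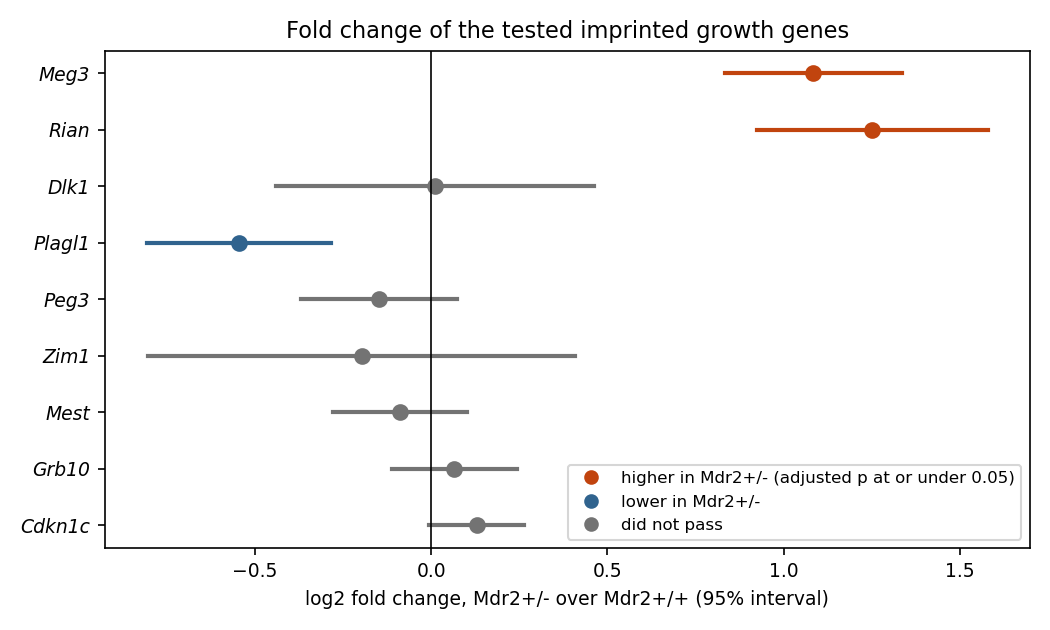
log2 fold change (Mdr2+/- over Mdr2+/+) of the 9 tested members with 95% intervals from the edgeR fit. The intervals of Rian (0.92 to 1.58) and Meg3 (0.83 to 1.33) lie above 0 and that of Plagl1 (-0.81 to -0.28) below it, while those of the other 6 include 0.

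Per kilobase of the longest annotated transcript, the order of the mean levels ran from Cdkn1c through Grb10, Peg3 and Mest down to Zim1 and Mirg in both genotypes. Cdkn1c averaged 44.0 ± 0.85 CPM per kilobase in Mdr2+/- livers and 40.2 ± 1.00 in Mdr2+/+ livers (SD, n = 3 and n = 2), and Grb10 averaged 27.1 ± 2.30 in Mdr2+/- and 25.9 ± 1.14 in Mdr2+/+ livers. Peg3 and Mest, at 18.5 ± 1.72 and 17.4 ± 1.63 in Mdr2+/- livers and at 20.5 ± 2.67 and 18.5 ± 0.812 in Mdr2+/+ livers, overlapped in both genotypes. Zim1 (0.174 in Mdr2+/-, 0.196 in Mdr2+/+) and Mirg (0.148 in Mdr2+/-, 0.107 in Mdr2+/+) came last. With median transcript lengths Grb10 came before Cdkn1c in both genotypes. Mest then lay above Peg3 in every library, at 71.8 to 84.7 against 35.7 to 42.4 in Mdr2+/- livers. In Mdr2+/+ livers Mest lay at 78.7 and 83.7 and Peg3 at 48.2 and 40.1. The Mdr2+/- mean of Peg3 was then below that of Rian, so this order too depends on the length used.

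Rian and Plagl1 exchanged places in this order. In Mdr2+/- livers Rian lay at 4.10, 5.45 and 4.21 CPM per kilobase and Plagl1 at 2.51, 2.28 and 2.32. In Mdr2+/+ livers Rian lay at 2.13 and 1.71 and Plagl1 at 3.09 and 3.85. Rian was thus above Plagl1 in each Mdr2+/- library and below it in each Mdr2+/+ library, and the mean order was the same with the median transcript length of each gene in place of the longest. Meg3 lay above Dlk1 in all 3 Mdr2+/- libraries (1.38 to 1.58 against 0.675 to 0.928) and below it in both Mdr2+/+ libraries (0.754 and 0.636 against 0.766 and 0.868). With median transcript lengths Meg3 lay above Dlk1 in both genotypes, so that order depends on the length used.

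Summed by the chromosome that transcribes them, the 6 maternal members had 289, 286 and 268 CPM in Mdr2+/- livers, against 235 and 235 CPM in Mdr2+/+ livers. The 4 paternal members had 240.1, 204 and 228 CPM in Mdr2+/- livers, against 262 and 237 CPM in Mdr2+/+ livers, with overlap. Meg3, Rian and Mirg together made 53.9, 65.9 and 57.7 CPM of the maternal sum in Mdr2+/- livers, against 28.6 and 23.5 CPM in Mdr2+/+ livers. With Meg3, Rian and Mirg taken out, the remaining maternal sums of the genotypes overlapped. The sums carry no test.

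Likeness to each member was measured as the root-mean-square difference of log2 CPM after centring each gene on its mean over the 5 libraries, with no p. Of 13958 other genes, Meg3 ranked 20 in likeness to Rian, and Rian ranked 59 in likeness to Meg3 (difference 0.174). The genes most like Meg3 were Rdm1, Dach2 and Dusp2 (differences of 0.0641 to 0.0763), and those most like Rian were Crybb3, Exph5 and Ptprcap (0.0258 to 0.102). Those most like Plagl1 were Tlr12, Htatip2 and Gm16723 (0.0302 to 0.0454). The 3 genes nearest to each of the others, at differences of 0.00899 to 0.0394, were 1810034E14Rik, Rabl2 and Cnot10 for Dlk1; AL845466.1, Crebzf and Sharpin for Peg3; Olfml3, Cdkn2aip and Wwtr1 for Mest; Slc35a1, Atxn3 and Vps39 for Grb10; Arhgap1, Fam82b and Uhrf1bp1l for Cdkn1c; and Bik, 4632428C04Rik and Mtrf1l for Zim1. Zim1 and its neighbour Peg3 differed by 0.124, which placed Peg3 at rank 506 for Zim1 and Zim1 at rank 1552 for Peg3. Mest, on another chromosome, was closer to Zim1 (0.111, rank 326). With 5 libraries many genes share a pattern, and these names describe likeness only.

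Beyond the members, the other imprinted genes mostly did not pass. Of 62 listed, 57 were found and 40 were tested, of which 3 were higher (7.5%) and 1 lower (2.5%), with a median log2 fold change of -0.02. Over all tested genes the shares were 6.63% higher and 5.41% lower, so these counts do not set the list apart. Igf2, the fetal growth factor, had 5065, 5846 and 5331 CPM in Mdr2+/- livers, against 4217 and 4225 CPM in Mdr2+/+ livers (log2 fold change 0.36, SE 0.07, edgeR adjusted p = 0.0141). Igf2r, the receptor that clears Igf2, averaged 72.7 ± 1.15 CPM in Mdr2+/- and 61.7 ± 0.0646 CPM in Mdr2+/+ livers (SD, n = 3 and n = 2), a log2 fold change of 0.24 (edgeR adjusted p = 0.0316). Ube3a, a ubiquitin ligase imprinted in neurons, rose by 0.39 on the log2 scale (edgeR adjusted p = 0.0118). The gene that fell was H13, an intramembrane protease (log2 fold change -0.28, edgeR adjusted p = 0.0251).

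These 4 calls were each lost when certain libraries were left out. Without Mdr2+/+ replicate 1, which leaves 1 Mdr2+/+ library, the median log2 fold change of the other imprinted genes was 0.015. Without Mdr2+/- replicate 2 edgeR called 0 of 39 tested. In that fit 8 of the 39 had an unadjusted p under 0.05, beside 3206 of all 13734 genes tested. With all libraries DESeq2 called 4 of 40 and limma voom 5, beside 1212 and 1645 of all 13959 tested genes. Igf2r was lost whichever library was left out (adjusted p = 0.0685 to 0.114), and also with library size alone (0.0623), in DESeq2 (0.093), with the replicate block (0.0717) and with the transcript length offset (log2 fold change 0.095, adjusted p = 0.366), so that it was called in 5 of 14 settings. Igf2 and Ube3a were each lost without Mdr2+/+ replicate 1 or Mdr2+/- replicate 2 (adjusted p = 0.0514 to 0.0601 for Igf2 and 0.0506 to 0.0724 for Ube3a). Ube3a was lost with the length offset too (log2 fold change 0.24, adjusted p = 0.094). H13 kept its call in 1 of the 5 fits that leave out a library. H19, the noncoding RNA beside Igf2, had a log2 fold change of 0.26 and missed the threshold (edgeR adjusted p = 0.0505), and it passed in 5 of 14 settings. The Kcnq1 domain around Cdkn1c had no called gene: the channel gene Kcnq1 (0.63, edgeR adjusted p = 0.149), Slc22a18 (0.11), Tssc4 (-0.28, adjusted p = 0.14), Cd81 (-0.17, adjusted p = 0.138), Nap1l4 (-0.03) and Osbpl5 (-0.06) are given as log2 fold changes. Phlda2 had at most 1 count in a library.

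**Figure D4:**
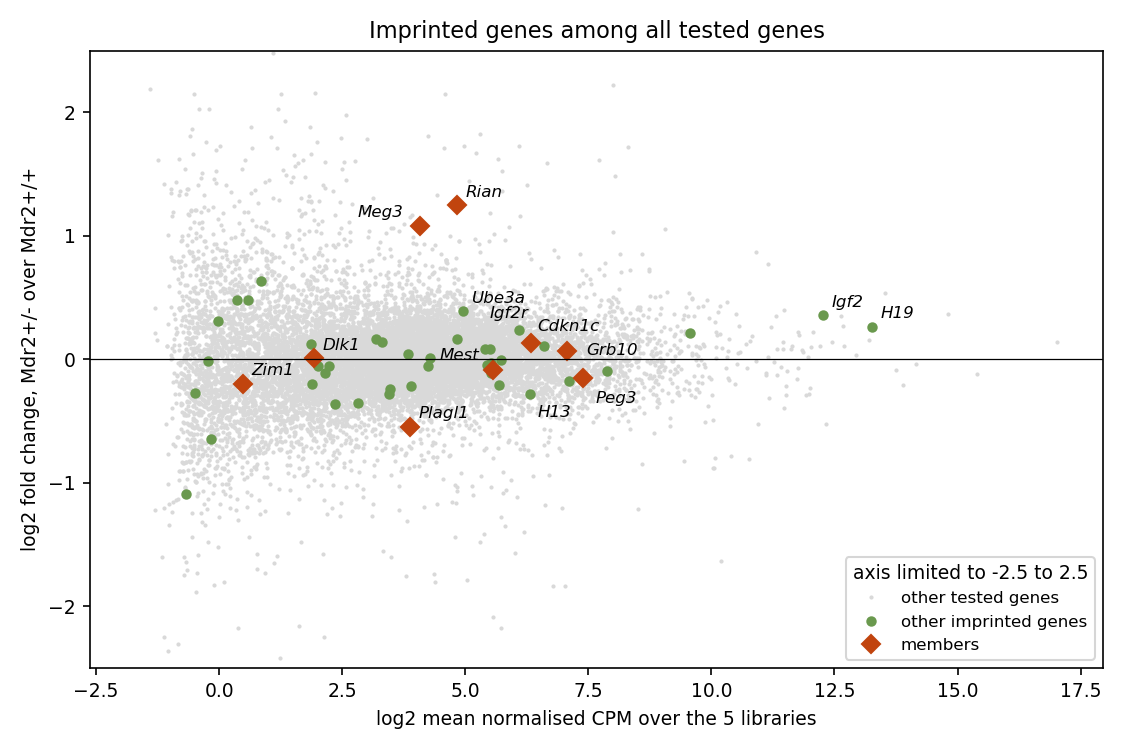
log2 fold change (Mdr2+/- over Mdr2+/+) against log2 mean normalised CPM for all 13959 tested genes (grey), with the 9 tested members (diamonds) and 40 other imprinted genes (circles); genes beyond 2.5 in either direction are not shown. Rian (1.25) and Meg3 (1.08) stand above the other imprinted genes, and Igf2 (0.36) and H19 (0.26) are the most abundant.

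Genes that work with the members were read from lists, with no test of a list. Of all tested genes, 6.63% were called higher and 5.41% lower. Of these 13959 genes, 3938 had an unadjusted p under 0.05 in edgeR, DESeq2 called 1212 and limma voom 1645. Of 13 genes of insulin receptor signalling around Grb10, 3 rose and 0 fell: the receptor Insr (log2 fold change 0.25), the kinase subunit Pik3r1 (0.42) and the mTORC1 scaffold Rptor (0.30). Insr and Rptor passed narrowly (edgeR adjusted p = 0.0408 and 0.0424). DESeq2 called 2 of the 13 and limma voom 4. Of 13 cyclins, kinases and inhibitors around Cdkn1c, 4 fell and 0 rose, and these were Ccnd1 (-0.62), Cdk4 (-0.30), Ccne1 (-0.49) and Ccna2 (-0.35). The related inhibitors Cdkn1a, Cdkn1b, Cdkn2c and Cdkn2d were in the list and did not pass. Of 11 tested Notch pathway genes around Dlk1, 1 rose, the target Heyl, at 19.9 ± 1.24 CPM in Mdr2+/- and 14.6 ± 0.0176 CPM in Mdr2+/+ livers (SD, n = 3 and n = 2; log2 fold change 0.45). Of 9 tested non-imprinted growth genes, the RNA-binding protein gene Igf2bp3 rose (0.35) and Igf2bp2 fell (-0.91). Of 14 factors that copy or guard imprints, such as Dnmt1, Uhrf1 and Trim28, 0 were called by edgeR, 0 by DESeq2 and 0 by limma voom, and 3 had an unadjusted p under 0.05 in edgeR.

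Marker lists of other cell types were read in the same way. In bulk tissue fewer cells of a type and less RNA per cell cannot be told apart. Of all tested genes, 6.63% were called higher and 5.41% lower. Of these 13959 genes, 3938 had an unadjusted p under 0.05 in edgeR, DESeq2 called 1212 and limma voom 1645. Of 15 stellate and mesenchymal markers 1 rose (Reln, log2 fold change 0.48) and 0 fell. Their summed level was 1460 to 1592 CPM in Mdr2+/- livers and 1209 and 1353 CPM in Mdr2+/+ livers. Of 12 endothelial markers 0 rose and 2 fell (Clec4g and Fcgr2b), with sums of 438 to 465 CPM in Mdr2+/- and 444 and 455 CPM in Mdr2+/+ livers. Of 8 tested cholangiocyte markers edgeR, DESeq2 and limma voom each called 0, and 1 had an unadjusted p under 0.05 in edgeR.

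Neutrophil, B cell, erythroid and dividing cell markers differed more, beside the same 6.63% higher and 5.41% lower of all tested genes. DESeq2 called 1212 of the 13959 tested genes, and 3938 had an unadjusted p under 0.05 in edgeR. Of 12 neutrophil markers 11 rose (such as Mpo, log2 fold change 1.81, and S100a9, 1.41), with sums of 387 to 495 CPM in Mdr2+/- and 182 and 131 CPM in Mdr2+/+ livers, and of 10 B cell markers 9 rose (such as Cd79b, 1.19), with sums of 44.7 to 53.4 CPM in Mdr2+/- and 20.9 and 13.8 CPM in Mdr2+/+ livers. Of 9 tested erythroid markers 8 fell (such as Hemgn, -0.79), with sums of 998 to 1093 CPM in Mdr2+/- and 2024 and 1641 CPM in Mdr2+/+ livers. Of 10 genes of cycling cells 4 fell and 0 rose (Pcna, Mcm2, Cdk1 and Mki67), with sums of 387 to 402 CPM in Mdr2+/- and 533 and 456 CPM in Mdr2+/+ livers. DESeq2 called 11 of the 12 neutrophil, 7 of the 10 B cell, 7 of the 9 erythroid and 3 of the 10 cycling genes. Of 9 tested Kupffer cell markers 2 fell (Marco and C1qb; DESeq2 called 1), and the sums overlapped, at 541, 497 and 467 CPM in Mdr2+/- and 664 and 454 CPM in Mdr2+/+ livers. Marco had 18.998 to 21.04 CPM in Mdr2+/- livers, against 55.4 and 26.0 CPM in Mdr2+/+ livers, with Mdr2+/+ replicate 1 standing apart. Of 8 tested T and natural killer cell markers 1 fell (Cd3e; DESeq2 called 0, and 4 had an unadjusted p under 0.05 in edgeR), with overlapping sums of 11.7 to 12.4 CPM in Mdr2+/- and 16.0 and 11.5 CPM in Mdr2+/+ livers. Of 9 hepatocyte markers 1 rose (Cps1, log2 fold change 0.87). Of 8 tested fetal liver genes 4 fell and 1 rose, with Afp at 790, 618 and 501 CPM in Mdr2+/- livers, against 1826 and 2125 CPM in Mdr2+/+ livers. None of the markers found was at 0 in all libraries. The part of these shifts in the Meg3, Rian and Plagl1 differences was not tested.

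**Figure D5:**
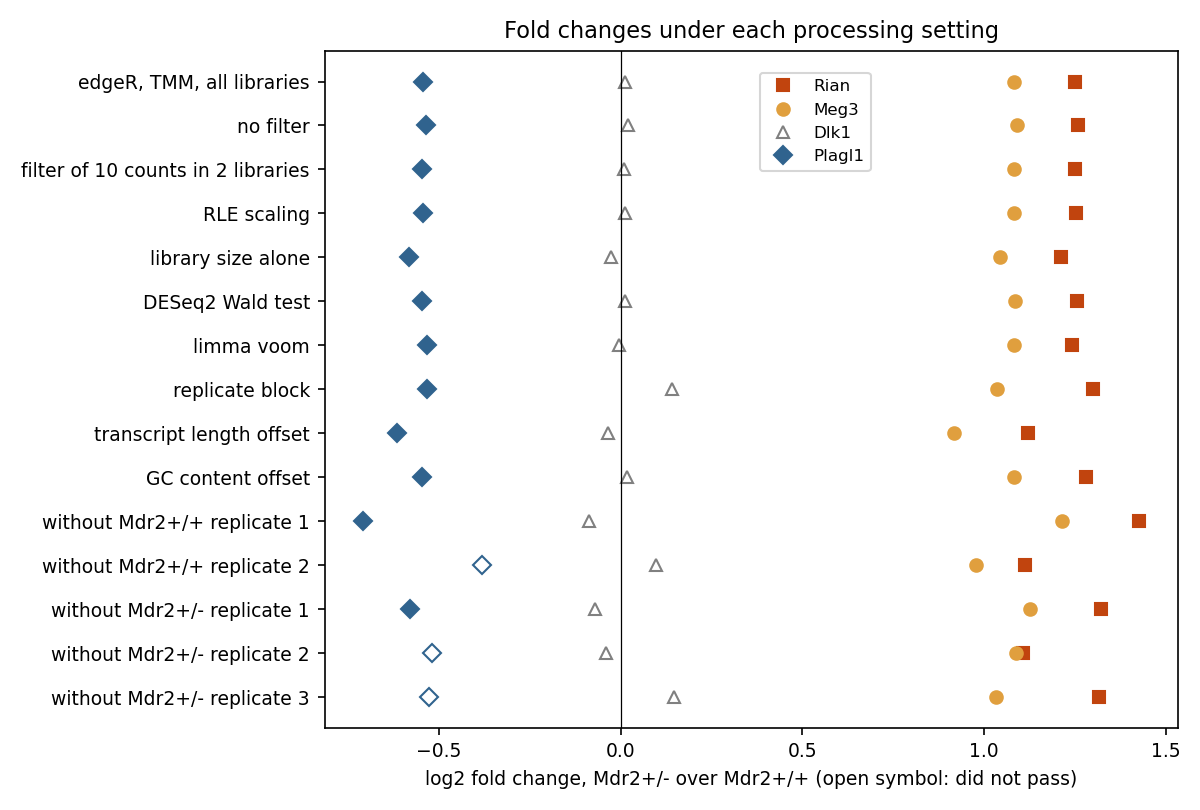
log2 fold change (Mdr2+/- over Mdr2+/+) of Rian, Meg3, Dlk1 and Plagl1 under the reported setting (top) and 14 alternatives; filled symbols passed the adjusted threshold of 0.05 and open symbols did not. Rian ranges from 1.11 to 1.43 and Meg3 from 0.92 to 1.22 with filled symbols throughout, Plagl1 from -0.71 to -0.38 with 3 open symbols, and Dlk1 stays near 0.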

How the data were processed

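Total RNA of liver lobe 1 went into TruSeq libraries (per the labels' protocols). TopHat and the build mm10 are listed in the submitters' processing notes. The counter, its annotation and its strand setting: not given in the sources used here. The deposited files hold estimated counts per Ensembl gene, 1 table a library, not scaled by the authors to depth or gene length. Library totals were 11944157 to 17312851, and 3 counts equal 0.174 to 0.252 CPM, depending on the library; intervals from counts cover counting error only.

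Estimated counts were rounded, filtered with filterByExpr (minimum count 10) in edgeR 4.0.16 under R 4.3.3, scaled by TMM and compared with glmQLFit and glmQLFTest, two-sided with no covariate. Adjusted p-values run over all 13959 tested genes. SEs were derived from the F statistic, as |log2 fold change| over its root, and intervals are 95%. Alternatives used limma 3.58.1, DESeq2 1.42.0, other filters and scalings, the replicate number as a block, loess offsets for transcript length and GC content, and each library left out. On simulated data the procedure recovered 48.5% of genes changed by 0.5 on the log2 scale and 85.1% of those changed by 1. Of its calls there, 6.79% were false. The simulation changed 66, 67 and 62 genes by 0.5, 1 and 2, among 13810 tested in it, while 12% of genes were called in the data. It drew counts from the dispersion trend, without a spread particular to each gene. These rates are therefore not the power of the comparison made here. Lengths and coordinates came from GENCODE M21, where 31782 of 36401 identifiers matched and a further 1910, Rian and Mirg among them, were matched by symbol. Named were all members, called or same-domain imprinted genes, up to 4 called genes a list, and the 3 genes most like each tested member. Of 62 listed imprinted genes 57 were found, and the others were not analysed here. H19, the cyclin-dependent kinase inhibitors and 3 imprint factors were named after their values had been seen. The members and lists were chosen with earlier results of these data known. Libraries of a genotype differed by more than counting noise (chi-square per degree of freedom 5.3 to 8.86).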

Additional observations from a re-analysis of the deposited data

How the results depend on the processing

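Members called numbered 2 or 3 in the 14 alternatives, of 9 tested (10 with no filter), and Meg3 and Rian were called in all 14. Leaving out a library moved the count of members to 2 at the lowest and 3 at the highest, that of all tested genes (1680) to 697 at the lowest and 1174 at the highest, and that of other imprinted genes (4, alternatives chosen after seeing the data) to 0 at the lowest and 3 at the highest. The fit with the replicate block called 3 members and 1277 of all genes. The numbers are not said to mark litters, and deviations of same-numbered libraries correlated at 0.03 in both pairs. The block changed no member's call. The sign of Dlk1 turned by library size alone (-0.027), in limma voom (-0.0046), with the length offset (-0.036) and with single libraries left out (-0.086 to 0.15). The cause was not tested. No other member changed sign. With 3 libraries against 2, the exact permutation p as computed, by doubling the smaller one-sided p, cannot go below 0.2. Mirg and Zim1 are limited by depth.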
